A study of Homo sapiens with 18 samples.

Results

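Hec-1A is an established human cell line from an endometrial adenocarcinoma, and its transcripts were measured with PDGF-AA and with control IgG on Illumina bead arrays. PDGF-AA is the homodimer of the A chain of platelet-derived growth factor. The comparison used the 3 Hec-1A arrays labelled PDGF-AA and the 3 labelled control IgG, 6 of the 18 arrays of the series. The labels alone decided which arrays entered, but the comparison and the gene lists were chosen with earlier results of these data known. The other arrays were Hec-1A with PDGF-AA and 3G3, an antibody to PDGF receptor alpha, and the same 3 treatments in RL95-2, another endometrial carcinoma line, with 3 arrays in each of the 6 groups. No genetic change, dose or duration of treatment is given in the sources used here. The control cells received an antibody and the PDGF-AA cells are labelled with none, so the ligand and the absence of IgG cannot be told apart. Nothing in the labels tells whether the replicates came from separate cultures, so p-values reflect the spread between these arrays, which may be technical.

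PDGF-AA signals through PDGF receptor alpha, a receptor tyrosine kinase found chiefly on mesenchymal cells such as stromal fibroblasts. Binding joins receptors in pairs, and the phosphorylated receptor recruits phospholipase C gamma, phosphoinositide 3-kinase and the adaptors that lead to RAS and ERK. In responsive cells immediate early genes are switched on first, followed by genes of growth, the actin cytoskeleton and metabolism. Carcinoma cells often make PDGF ligands that act on the surrounding stroma.

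The arrays carried the markers of the labelled line. All 9 epithelial markers, among them the keratins KRT8 and KRT19 and the adhesion protein EPCAM, lay above the array median on each of the 6 arrays, and so did SPP1, AXL and TM4SF1, which mark Hec-1A against RL95-2. Of the 4 markers of RL95-2, S100A8 and S100A9 lay at or below the array median of 6.64 on all 6 arrays, and CRABP2 lay above it. The markers of each line were listed with earlier results of these data known, so their levels are no independent check of the line. Of the fibroblast and smooth muscle markers only ACTA2 was above the median on all 6 arrays, and of the leukocyte markers only CD68. None of the 5 endothelial markers was. The 75th percentile of the signal was 185.9, 157.6 and 159.5 on the control arrays and 122.7, 152.8 and 153.4 on the PDGF-AA arrays, before normalization. The markers of Hec-1A were not level between the groups. SPP1 read 13.591, 13.179 and 13.275 on the control arrays and 12.155, 13.015 and 12.454 on the PDGF-AA arrays. AXL and TM4SF1 were also lower on every PDGF-AA array than on any control, as were 9.76% of all genes. In bulk RNA, fewer cells of a type and less RNA per cell cannot be told apart.

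Control IgG replicate 1 stood apart, so differences are given with all arrays and without it. Its correlation with the other Hec-1A arrays was 0.945 to 0.976, while no pair among those others was below 0.987. On it, 523 genes lay at least 2-fold from the mean of the other control arrays, 352 of them higher and 171 lower. The genes furthest above were ITGAV, an integrin subunit, at a log2 difference of 2.30, CD2AP, an adaptor of the actin cytoskeleton, at 2.25, the nuclear export receptor XPO1 at 2.24 and the DNA translocase HLTF at 2.23. Those furthest below were FXYD2, a regulator of the sodium pump, at -1.74, and NDUFA3 and NDUFB7, subunits of respiratory complex I, at -1.67 and -1.61. The genes lower on this array were short, with a median genomic span of 4.44 kb, and those higher were long, at 62.3 kb, against 25.4 kb over all genes tested. For the other 8 Hec-1A arrays, measured against the rest of their own group with that array set aside, 0 to 24 genes lay as far apart. PDGF-AA replicate 2 was the closest to the control arrays, with correlations of 0.997 and 0.996 to control replicates 2 and 3.

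The receptor of PDGF-AA was dim on these arrays. PDGFRA read 6.55, 6.54 and 6.58 on the control arrays and 6.55, 6.62 and 6.59 on the PDGF-AA arrays, each below the array median of 6.64. No detection p-values were used here, so a level at the median does not show that the transcript is absent. PDGFRB, the other receptor, was not above the median on any of the 6 arrays and was not tested. The ligand PDGFC read 10.75, 10.08 and 10.27 on the control arrays and 10.08, 10.29 and 10.03 with PDGF-AA. These groups overlapped, and the log2 difference was -0.23 ± 0.13 (SE), or -0.04 ± 0.10 without control replicate 1. PDGFA, the gene of the added ligand, read 6.61, 6.87 and 6.72 against 6.64, 6.64 and 6.70, and its groups also overlapped. Over the 6 tested members, the differences ran from -0.23 for PDGFC to 0.13 for the receptor-like PDGFRL. PDGFB stood at 0.07, PDGFRA at 0.03 and PDGFD at -0.02. Without normalization between arrays PDGFB, PDGFRA and PDGFRL turned negative. None passed the threshold.

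No transcript passed the test in Hec-1A. Of 32070 probes tested, 0 reached an adjusted p below 0.05 in limma's moderated test over all arrays, in either direction, and 0 did without control replicate 1. The smallest adjusted p was 0.0901 with all arrays, shared by TAGLN and PLCB4, and 0.234 without that replicate. At an unadjusted p below 0.05 there were 6736 probes (21%) with all arrays and 2977 (9.28%) without it. The median 95% half-width of a log2 difference was 0.162, or 0.173 without control replicate 1, and the number of arrays limits this precision. Counted on the brightest probe of each of 15360 genes, 913 (5.94%) were higher and 607 (3.95%) lower with PDGF-AA at an unadjusted p below 0.05 in both fits. In 1778 genes (11.6%) all PDGF-AA arrays lay above all control arrays, and in 1499 (9.76%) below. At least 1.5-fold apart were 565 genes with all arrays and 53 without control replicate 1. The count past the threshold depended on single arrays, since it was 3684 without control replicate 2, which leaves replicate 1 as 1 of only 2 controls, and 13 without PDGF-AA replicate 2. Without control replicate 1 it was 410 when PDGF-AA replicate 2 was left out as well. The count also depended on array weights, since estimated quality weights, which let arrays that deviate count for less, gave 4701 probes with all arrays and 36 without control replicate 1. The values that follow rank the differences, none of which passed the adjusted test with equal weights.

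Among genes higher with PDGF-AA, TAGLN ranked first. TAGLN, probe ILMN_1778668 on chromosome 11, encodes transgelin, an actin-binding protein of smooth muscle and other contractile cells. It read 7.10, 7.32 and 7.26 on the control arrays and 7.87, 7.64 and 7.88 on the PDGF-AA arrays. All PDGF-AA arrays were above all controls, replicate 2 being the lowest of them. The log2 difference was 0.57 ± 0.09 (SE; limma adjusted p = 0.0901), and 0.51 ± 0.09 without control replicate 1 (adjusted p = 0.256). With array quality weights it was 0.56 (limma adjusted p = 0.00143). Over 17 alternatives it ran from 0.331 to 0.697, and the limma adjusted p reached 0.449 with the 6 arrays of the 2 groups only. With 3G3 added the arrays read 7.66, 7.74 and 7.59, above all controls and overlapping the arrays with PDGF-AA alone. A second TAGLN probe differed by 0.17 and the third by -0.02, both near the array median.

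BRMS1, a subunit of histone deacetylase complexes named as a metastasis suppressor, read 7.09, 7.50 and 7.37 on control and 7.92, 7.80 and 7.78 on PDGF-AA arrays. GCN1, which activates the amino acid sensing kinase GCN2 at stalled ribosomes, read 10.41, 10.53 and 10.68 and 11.06, 11.05 and 10.91. In both genes the groups were separate, which the rule that ranked them required. For GCN1 the arrays with 3G3, at 10.78, 10.62 and 10.75, were below all arrays with PDGF-AA alone and overlapped the controls. The differences were 0.52 ± 0.10 and 0.47 ± 0.08 (SE), with a limma adjusted p of 0.109 for each, and 0.40 ± 0.09 and 0.40 ± 0.09 without control replicate 1. MIDN, which brings nuclear proteins to the proteasome, read 8.04, 8.57 and 8.51 against 9.44, 8.86 and 9.09, and PDGF-AA replicate 1 was the highest of all. It differed by 0.76 ± 0.15, and by 0.59 ± 0.14 without control replicate 1.

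MT2A, a metallothionein that binds zinc and copper, gave the largest fold, on the brightest probe of each gene, among genes that were higher at an unadjusted p below 0.05 in both fits with groups apart. It read 9.20, 10.87 and 10.43 on the control arrays and 11.51, 10.99 and 11.55 on the PDGF-AA arrays. Control replicate 1 was far below its group, and PDGF-AA replicate 2 was only just above control replicate 2. Its log2 difference of 1.19 ± 0.27 shrank to 0.70 ± 0.14 without control replicate 1. The arrays with 3G3, at 11.48, 11.44 and 11.33, were as high as those with PDGF-AA alone. The other genes of this rank were F12, coagulation factor XII, NAA38, a subunit of an N-terminal acetyltransferase, METTL1, a tRNA methyltransferase, SCO2, a copper chaperone of cytochrome c oxidase, ARHGAP1, PPDPF and BBLN. Their differences ran from 0.32 for ARHGAP1 to 0.99 for NAA38 with all arrays, and from 0.25 for METTL1 to 0.57 for NAA38 without control replicate 1. ARHGAP1 turned to -0.05 without normalization between arrays. Next to MT2A in fold came ROMO1, a protein of the inner mitochondrial membrane, at 1.13 (1.194 on its dimmer probe), the small nucleolar RNA host SNHG9 at 1.14 and the ribosomal proteins RPS21 and RPL36 at 1.16 and 1.06. Without control replicate 1 these were 0.63, 0.77, 0.61 and 0.53.

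**Figure D1:**
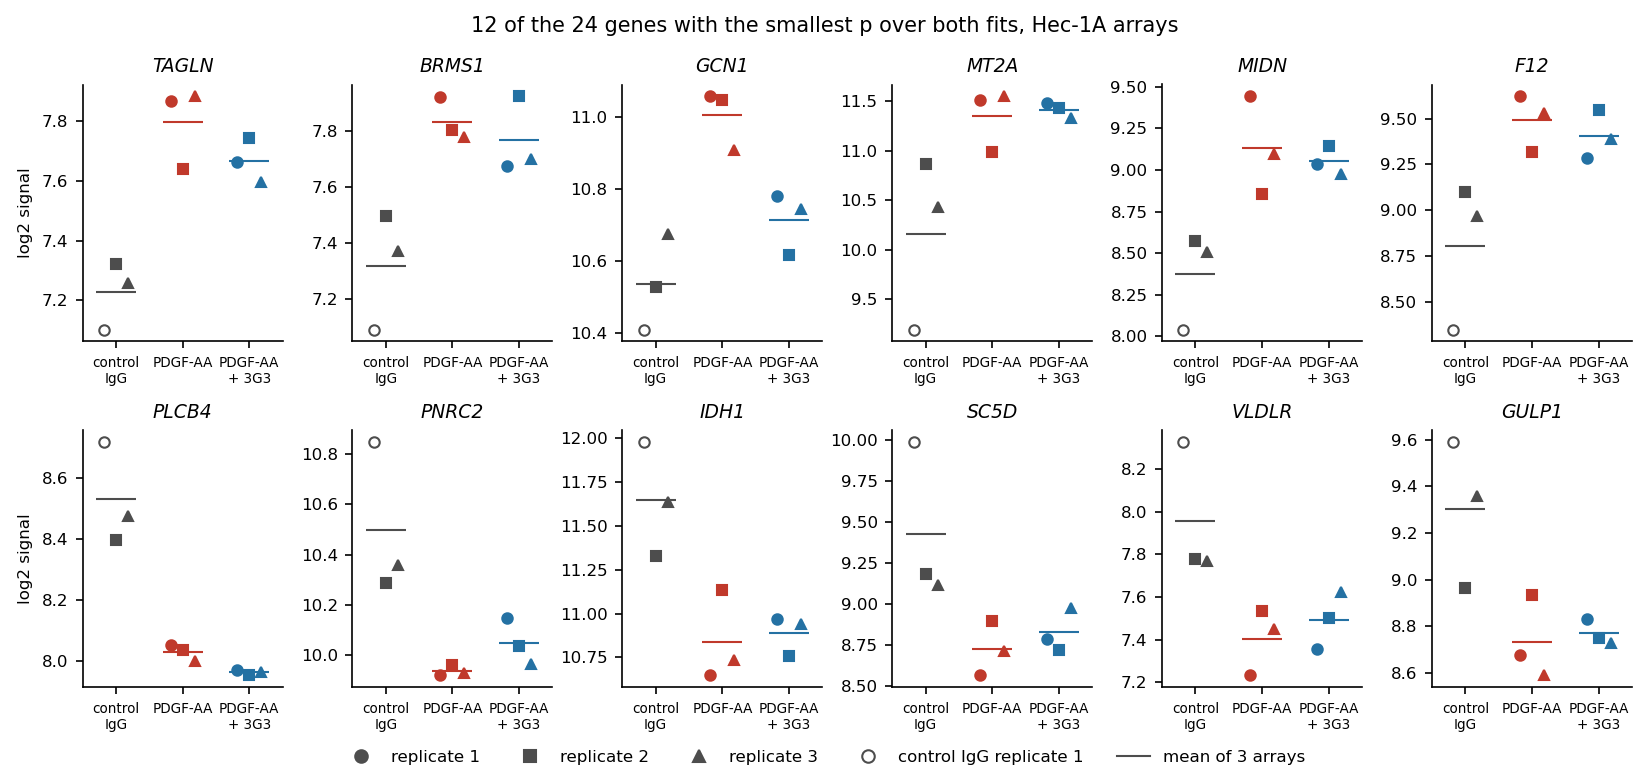
Log2 signal of 12 genes on the 9 Hec-1A arrays, by treatment, with 1 point per array and a line at the mean of 3 arrays. The open circle is control IgG replicate 1, which is the lowest control in the upper row and the highest in the lower row. PDGF-AA arrays lie on the far side of every control in all 12 genes because the rule that chose them required it. Of all genes, 11.6% had all PDGF-AA arrays above all controls and 9.76% below.

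Among genes lower with PDGF-AA, PLCB4 had the smallest p. PLCB4, probe ILMN_2397294 on chromosome 20, encodes phospholipase C beta 4, which cleaves phosphatidylinositol bisphosphate downstream of G protein-coupled receptors. It read 8.72, 8.40 and 8.48 on the control arrays and 8.06, 8.04 and 8.001 on the PDGF-AA arrays, which lay within 0.1 of each other. The log2 difference was -0.50 ± 0.07 (limma adjusted p = 0.0901), and -0.41 ± 0.07 without control replicate 1 (adjusted p = 0.234). A second probe differed by -0.26. The arrays with 3G3 read 7.97, 7.95 and 7.97, as low as those with PDGF-AA alone.

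PNRC2, an adaptor of messenger RNA decay, read 10.85, 10.29 and 10.36 against 9.92, 9.96 and 9.93, with the PDGF-AA arrays close together below every control. A dimmer PNRC2 probe, at a control mean of 8.197, had overlapping groups. It differed by -0.146 with all arrays and by -0.027 without control replicate 1. CLCC1, a chloride channel of the endoplasmic reticulum, read 10.21, 9.86 and 9.87 against 9.51, 9.64 and 9.55, but 2 dimmer CLCC1 probes differed by 0.09 and 0.08. VLDLR, the very low density lipoprotein receptor, read 8.33, 7.78 and 7.77 against 7.23, 7.54 and 7.45. The differences of PNRC2, CLCC1 and VLDLR were -0.56, -0.41 and -0.55 with all arrays and -0.39, -0.30 and -0.37 without control replicate 1. RNFT1, a ubiquitin ligase, was a leading gene for which control replicate 1 lay between the other controls. It read 8.75, 8.69 and 8.81 on control and 8.32, 8.46 and 8.25 on PDGF-AA arrays, and its difference was -0.41 ± 0.08 with all arrays and -0.41 ± 0.10 without control replicate 1. In TINAG, a basement membrane protein, the controls were also close together, and the differences were -0.35 and -0.37. TM4SF1, a membrane protein abundant in this line, differed by -0.38, GULP1, an adaptor for the engulfment of dying cells, by -0.57 and TRMT10C, a subunit of mitochondrial RNase P, by -0.50, and without control replicate 1 by -0.30, -0.43 and -0.36. Among genes lower at an unadjusted p below 0.05 in both fits with groups apart, the largest folds on the brightest probe were in HSD17B11, a short-chain dehydrogenase found on lipid droplets, at -1.23, UBA3, the catalytic subunit of the enzyme that activates NEDD8, at -1.19, the dynein subunit DYNC1I2 at -1.07, the scaffold protein SDCBP (syntenin) at -1.07 and ATAD1, which clears misplaced proteins from mitochondria, at -1.05. HSD17B11 read 10.84, 10.17 and 10.12 against 8.54, 9.70 and 9.19, so that the PDGF-AA arrays themselves spread over more than 1 log2 unit. Without control replicate 1 these 5 differences were -1.002, -0.94, -0.87, -0.68 and -0.65. A dimmer ATAD1 probe had overlapping groups and differed by -0.537 with all arrays and by -0.18 without control replicate 1. HLTF and ABCE1, among the genes furthest above on control replicate 1, had groups apart and differed by -1.27 and -1.15, but by -0.52 and -0.45 without it, where their unadjusted p was 0.133 and 0.218.

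Some interferon-induced antiviral genes read lower with PDGF-AA. Interferons act through STAT and IRF factors on promoters that hold the interferon-stimulated response element. Of the 33 measured interferon response genes, 8 were lower and 1 higher at an unadjusted p below 0.05 in both fits, where 3.95% and 5.94% of all genes were. The median log2 difference of the list was -0.02 against 0.004 over all genes, and -0.02 against 0.007 without control replicate 1. None of the 33 passed the adjusted test. The 8 were IFIT1, IFIT2 and IFIT3, which bind viral RNA or its complexes, RSAD2 (viperin), IFI44, the helicase DDX60, and RIGI and IFIH1 (MDA5), which sense viral RNA in the cytosol. Over the whole list, 9 of 33 members had all PDGF-AA arrays below all control arrays and 1 had them above, where 9.76% and 11.6% of all genes did, and the 8 are among those 9. Scaling arrays to a common median or leaving out normalization gave 9 lower members in place of 8. Leaving out normalization also moved the median over all probes from 0.003 to -0.119. The share of all genes lower was not counted under these settings.

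Sequences of 6 of these promoters are shown because they hold the core of the element named above, with its matches in capitals. They are the RefSeq windows of 250 bases before to 50 after the start of transcription on GRCh38.p14, written 5′ to 3′ on the strand of the gene. The motif searched was GAAA, then 2 bases of any kind, then GAAA, on both strands, and overlapping matches run together.
IFIT1, chr10:89392373-89392672, plus strand: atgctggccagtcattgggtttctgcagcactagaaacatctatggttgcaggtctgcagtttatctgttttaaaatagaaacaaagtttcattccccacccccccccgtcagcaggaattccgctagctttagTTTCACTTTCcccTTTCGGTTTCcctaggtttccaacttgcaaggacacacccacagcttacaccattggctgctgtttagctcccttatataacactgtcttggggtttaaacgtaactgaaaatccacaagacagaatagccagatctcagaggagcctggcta
IFIT3, chr10:89327747-89328046, plus strand: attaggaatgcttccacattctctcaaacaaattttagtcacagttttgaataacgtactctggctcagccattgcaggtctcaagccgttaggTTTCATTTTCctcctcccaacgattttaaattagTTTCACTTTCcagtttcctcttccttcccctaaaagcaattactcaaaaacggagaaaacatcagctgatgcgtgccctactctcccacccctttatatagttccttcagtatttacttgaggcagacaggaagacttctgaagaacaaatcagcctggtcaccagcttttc
RSAD2, chr2:6877527-6877826, plus strand: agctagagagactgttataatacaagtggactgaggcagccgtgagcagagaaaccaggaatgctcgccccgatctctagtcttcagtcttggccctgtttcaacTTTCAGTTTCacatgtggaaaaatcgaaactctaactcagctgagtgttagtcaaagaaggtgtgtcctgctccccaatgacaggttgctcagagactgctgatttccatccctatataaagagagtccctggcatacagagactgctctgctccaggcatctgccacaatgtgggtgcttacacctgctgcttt
IFI44, chr1:78649539-78649838, plus strand: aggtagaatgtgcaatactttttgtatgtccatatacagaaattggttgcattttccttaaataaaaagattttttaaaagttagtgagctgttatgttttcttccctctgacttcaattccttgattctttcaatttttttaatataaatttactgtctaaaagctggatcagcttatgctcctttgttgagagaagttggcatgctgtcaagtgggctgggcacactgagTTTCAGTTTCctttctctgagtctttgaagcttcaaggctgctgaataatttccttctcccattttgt
DDX60, chr4:168318703-168319002, minus strand: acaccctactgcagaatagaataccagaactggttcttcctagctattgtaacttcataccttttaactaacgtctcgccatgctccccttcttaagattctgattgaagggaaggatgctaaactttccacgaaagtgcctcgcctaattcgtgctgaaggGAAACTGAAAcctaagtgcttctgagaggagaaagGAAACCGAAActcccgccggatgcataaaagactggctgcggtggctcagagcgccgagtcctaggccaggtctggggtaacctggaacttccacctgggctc
IFIH1, chr2:162318635-162318934, minus strand: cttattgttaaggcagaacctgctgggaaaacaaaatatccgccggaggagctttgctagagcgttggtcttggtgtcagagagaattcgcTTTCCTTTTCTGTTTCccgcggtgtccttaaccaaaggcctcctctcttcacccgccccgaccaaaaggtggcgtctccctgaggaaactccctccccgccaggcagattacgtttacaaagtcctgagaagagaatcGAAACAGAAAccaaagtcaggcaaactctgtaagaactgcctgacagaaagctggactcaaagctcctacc
IFIT1, IFIT3 and DDX60 held 2 matches each, IFIH1 3, of which 2 overlap, and RSAD2 and IFI44 1 each. Of the 8 genes, 7 had an entry, and 6 of those had a match in at least 1 entry. RIGI and the other RSAD2 entry had none, and IFIT2 had no entry. Among the other 25 measured interferon response genes 20 had an entry and 14 of them a match. Counted by promoter entry, 8 of 10 entries of the lower genes and 16 of 26 of the other members held it, against 3.57% of all promoters of this length (1255 of 35116). A match is a stretch of letters and does not show that a factor binds there.

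IFIT1, probe ILMN_1707695 on chromosome 10, read 9.59, 9.06 and 9.29 on the control arrays and 8.51, 8.59 and 8.53 on the PDGF-AA arrays. The PDGF-AA arrays were tightly grouped. With 3G3 the gene read 8.80, 8.64 and 9.23, and replicate 3 of that group lay among the controls. Its log2 difference was -0.77 ± 0.15 (limma adjusted p = 0.109), and -0.63 ± 0.15 without control replicate 1 (adjusted p = 0.284). A dimmer second probe differed by -0.14. IFIT2 read 9.92, 9.01 and 9.13 against 8.34, 8.57 and 8.55, a difference of -0.87 ± 0.21 that became -0.58 ± 0.17 without control replicate 1. IFI44 read 8.66, 8.13 and 8.07 against 7.70, 7.75 and 7.62, and RSAD2 8.05, 7.70 and 7.96 against 7.49, 7.57 and 7.30. In IFIT2, IFI44 and RSAD2 the lowest control was still above the highest PDGF-AA array. IFIT3 read 7.99, 8.20 and 8.29 against 7.96, 7.81 and 7.86, and there control replicate 1 was the lowest control, so the difference of -0.28 grew to -0.36 without it. DDX60 differed by -0.67 and -0.41 in the 2 fits, IFIH1 by -0.32 and -0.23, and RIGI by -0.30 and -0.21. Other members went the opposite way. IFITM2, a membrane protein that blocks virus entry, read 8.74, 9.84 and 9.54 against 10.31, 9.80 and 10.18, with overlapping groups and a difference of 0.72, or 0.41 without control replicate 1. ISG15, a ubiquitin-like modifier, differed by 0.69 with all arrays and by 0.19 without that array, on which it read 9.19 against 10.73 and 10.67 on the other controls.

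**Figure D2:**
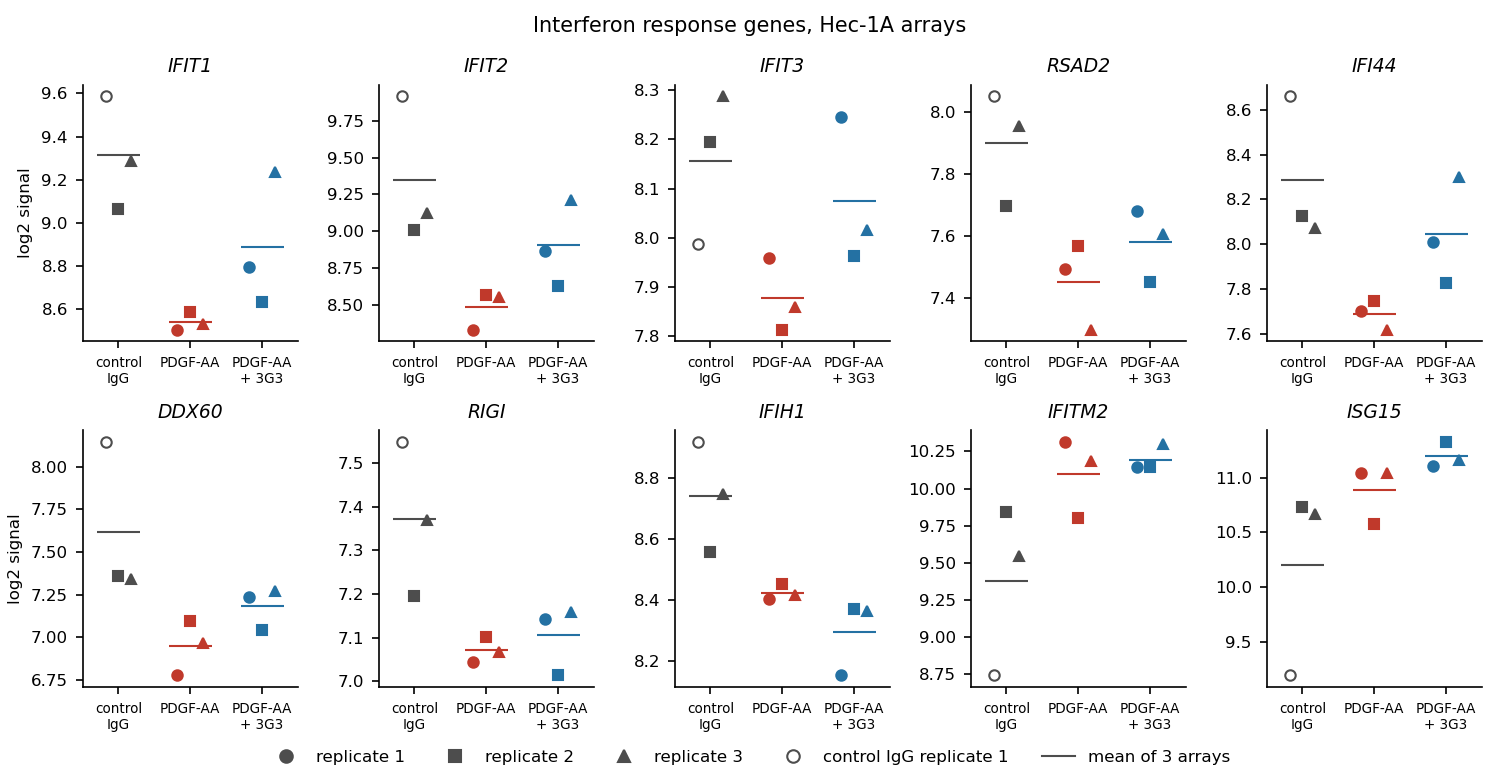
Log2 signal of 10 interferon response genes on the 9 Hec-1A arrays, by treatment, with 1 point per array and a line at the mean of 3 arrays. In the first 8 genes all PDGF-AA arrays lie below all control arrays, while IFITM2 and ISG15 are lowest on control IgG replicate 1, the open circle.

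Some enzymes of lipid synthesis read lower with PDGF-AA. Fatty acids are built from cytosolic acetyl-CoA with NADPH, and cholesterol from acetyl-CoA through mevalonate, and SREBP factors switch on both sets of enzymes. Of 13 measured fatty acid synthesis genes, 5 were lower and 0 higher at an unadjusted p below 0.05 in both fits, where 3.95% and 5.94% of all genes were, and the median was -0.13 with all arrays and -0.10 without control replicate 1. Of 19 cholesterol synthesis genes, 5 were lower and 1 higher, with medians of -0.01 and -0.04. Taking the median over all probes of each gene moved the cholesterol median to 0.09, and normexp background correction or no normalization left 3 lower fatty acid genes in place of 5. The share of all genes lower was not counted with normexp or with no normalization. No member passed the adjusted test. Control replicate 1 stood apart here too, since its fatty acid genes were above the other controls by a median of 0.33.

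SCD, the stearoyl-CoA desaturase, read 13.47, 12.52 and 12.84 on control and 12.22, 12.50 and 12.51 on PDGF-AA arrays. Control replicate 1 was highest by far, and PDGF-AA replicates 2 and 3 lay just below control replicate 2. The difference of -0.54 ± 0.16 shrank to -0.27 ± 0.10 without that control. ME1, the cytosolic malic enzyme that yields NADPH, went from -0.46 to -0.20, the acyl-CoA synthetase ACSL1 from -0.36 to -0.22, and ATP citrate lyase, ACLY, from -0.44 to -0.19. The desaturase FADS1 differed by -0.13 and -0.15. The groups of ACLY and FADS1 overlapped.
In the cholesterol pathway SC5D, which desaturates lathosterol near the end of the route, was the clearest. It read 9.99, 9.19 and 9.12 against 8.57, 8.90 and 8.72, with groups apart, and differed by -0.70 ± 0.16, or -0.42 ± 0.09 without control replicate 1. HMGCS1, which makes the precursor of mevalonate, read 12.13, 11.18 and 11.20 against 10.37, 11.08 and 10.65, and PDGF-AA replicate 1 was the lowest array. Its differences were -0.81 and -0.49. SQLE, squalene epoxidase, stood at -0.51 and -0.23, IDI1 at -0.51 and -0.34, and ACAT2 at -0.39 and -0.40, of which only SQLE had groups that did not overlap. PMVK, phosphomevalonate kinase, was the member that was higher, at 0.58 and 0.34. INSIG2, which holds the SREBP escort protein in the endoplasmic reticulum, read 9.91, 8.91 and 9.08 against 7.98, 8.52 and 8.42, a difference of -0.99 ± 0.24, or -0.69 ± 0.20 without control replicate 1.

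Some cytosolic enzymes of carbon metabolism also read lower. IDH1, the cytosolic NADP-dependent isocitrate dehydrogenase, probe ILMN_2091347 on chromosome 2, read 11.98, 11.33 and 11.63 on the control arrays and 10.65, 11.14 and 10.73 on the PDGF-AA arrays. PDGF-AA replicate 2 was the nearest to the controls. The difference was -0.81 ± 0.16 (limma adjusted p = 0.109), and -0.64 ± 0.15 without control replicate 1, and a second probe differed by -0.46. MDH1, cytosolic malate dehydrogenase, read 12.35, 12.07 and 12.18 against 11.45, 11.82 and 11.61, a difference of -0.57 ± 0.13, or -0.49 ± 0.13 without control replicate 1. The lactate dehydrogenase subunits LDHA and LDHB differed by -0.52 and -0.82, and by -0.43 and -0.59 without it. The glycolytic kinase PGK1 differed by -0.65 and -0.52, with overlapping groups, while the phosphofructokinase PFKP was higher by 0.37 and 0.25. Of 17 glycolysis genes 3 were lower and 1 higher in both fits, and of 18 genes of the tricarboxylic acid cycle and isocitrate enzymes 2 were lower and 1 higher. Over all genes 3.95% were lower and 5.94% higher, so the higher counts were near that share. The medians of these lists were 0.04 and -0.01 with all arrays and turned to -0.05 and 0.01 without control replicate 1. TXNRD1, the cytosolic thioredoxin reductase, read 11.92, 11.17 and 11.81 against 10.997, 11.10 and 11.06, a difference of -0.58 that was -0.43 without control replicate 1. A second TXNRD1 probe, at a control mean of 11.581, had overlapping groups. It differed by -0.388 with all arrays and by -0.207 without control replicate 1.

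Part of the respiratory chain genes read higher with PDGF-AA under the main normalization, and this depended on the normalization and on control replicate 1. Of 61 measured nuclear genes that encode subunits of the chain and of ATP synthase, 22 were higher and 2 lower at an unadjusted p below 0.05 in both fits, against 5.94% and 3.95% of all genes. The median log2 difference was 0.25 with all arrays and 0.08 without control replicate 1. With arrays scaled to a common median in place of quantile normalization 3 members were higher, and with no normalization 0 were, with a median of -0.02. With no normalization the median over all probes also fell, from 0.003 to -0.119, so the list median was still above it. The share of all genes higher was not counted under these settings. On control replicate 1 the median member stood at -0.77 relative to the other controls. Each of the 6 other PDGF-AA and 3G3 arrays was above the mean of control replicates 2 and 3, by 0.02 to 0.21, while those 2 controls differed from their own mean by 0.08.
COX8A, a subunit of cytochrome c oxidase, read 10.42, 11.90 and 11.62 on control and 12.41, 11.999 and 12.29 on PDGF-AA arrays. Control replicate 1 was more than 1 log2 unit below the other controls, and PDGF-AA replicate 2 only just above them. The difference of 0.92 ± 0.25 shrank to 0.47 ± 0.11 without it. NDUFA2 of complex I went from 0.86 to 0.42, UQCR10 of complex III from 0.84 to 0.44, and ATP5MF of ATP synthase from 0.77 to 0.34.
The cytosolic ribosomal proteins also stood apart on that array. Of 43 members 5 were higher and 0 lower in both fits, against 5.94% and 3.95% of all genes, with medians of 0.07 and 0.00, and the median on control replicate 1 was -0.36 relative to the other controls. The 5 became 2 with scaling to a common median and 1 with no normalization, where the share of all genes higher was not counted. RPS18 read 11.36, 12.50 and 12.40 against 13.07, 12.57 and 12.98, a difference of 0.79, or 0.42 without control replicate 1. RPL14 stood at 0.67 and 0.33, and RPS14 at 0.41 and 0.20.

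Gene length differed with the direction of the difference. The 913 genes higher in both fits had a median genomic span of 10.1 kb and the 607 lower genes one of 45.1 kb, against 25.4 kb over all genes tested. Without control replicate 1 the spans were 10.3 kb for 958 higher genes (6.24%) and 42.8 kb for 691 lower genes (4.5%). Short genes were thus the higher ones with PDGF-AA and the lower ones on control replicate 1, and the spans were close to these without that array.

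**Figure D3:**
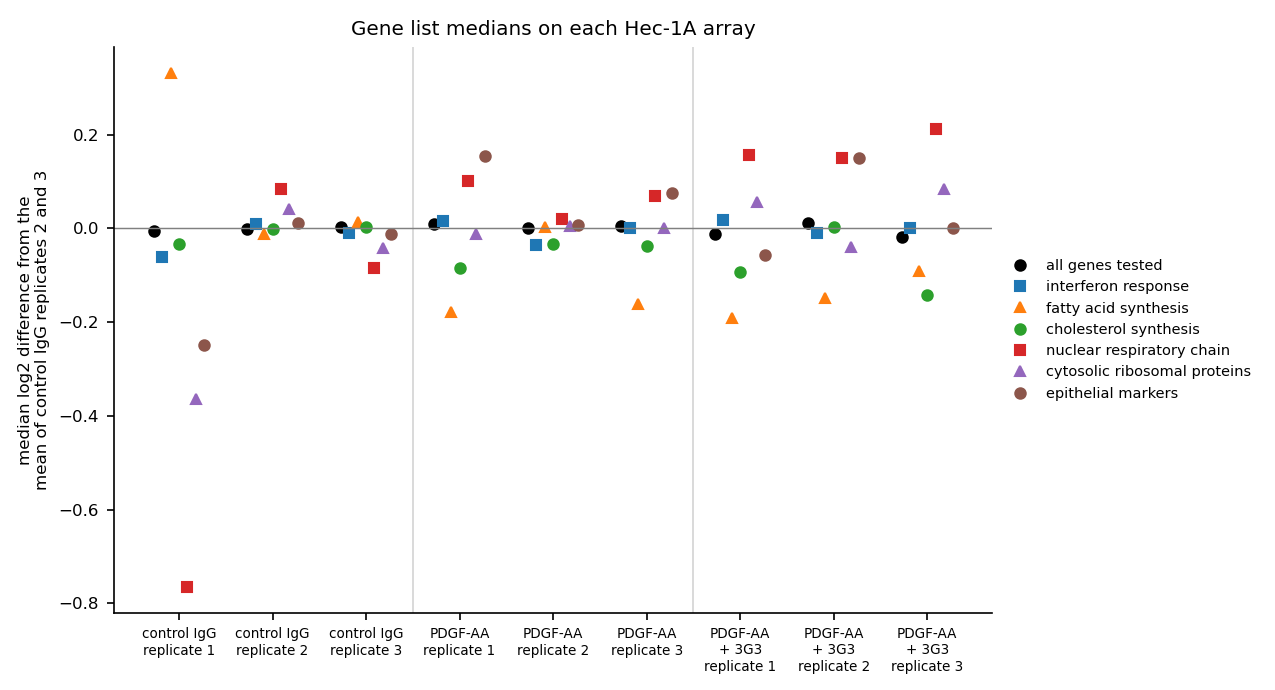
Median log2 difference of 6 gene lists and of all genes tested from the mean of control IgG replicates 2 and 3, on each of the 9 Hec-1A arrays. Control IgG replicate 1 lies at -0.77 for the respiratory chain and 0.33 for fatty acid synthesis, and the largest value on any other array is 0.21, for the respiratory chain on PDGF-AA + 3G3 replicate 3.

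Epithelial and cytoskeletal genes differed in both directions. Of 22 epithelial markers 4 were higher and 2 lower at an unadjusted p below 0.05 in both fits, against 5.94% and 3.95% of all genes, and the median was 0.12 with all arrays and 0.06 without control replicate 1. KRT7, a keratin of simple epithelia, read 10.03, 10.51 and 10.46 against 11.08, 10.65 and 10.93, with groups apart and a difference of 0.55 ± 0.13, or 0.40 ± 0.11 without control replicate 1. KRT18 differed by 0.41 and 0.28, the tight junction protein CLDN4 by 0.29 and 0.22, and the epithelial transcription factor OVOL2 by 0.46 and 0.22. The lower members were junction proteins. CLDN1, claudin 1, read 12.89, 11.89 and 12.02 against 11.38, 11.76 and 11.59, and CDH1, E-cadherin, 11.56, 10.51 and 10.82 against 10.32, 10.50 and 10.28. Control replicate 1 was well above the other controls in both, and the differences of -0.69 and -0.60 became -0.38 and -0.30 without it. PDGF-AA replicate 2 reached 10.50 for CDH1, at the level of control replicate 2. Of 10 measured mesenchymal markers 0 were higher and 0 lower in both fits, with a median of 0.08. Of 25 actin cytoskeleton genes controlled by SRF and MRTF, 2 were higher and 0 lower in both fits, TAGLN and its homolog TAGLN2, a share near that of all genes. TAGLN2 read 9.999, 10.54 and 10.30 against 10.79, 10.51 and 10.62, with overlapping groups, and differed by 0.36 and 0.22. The list median was 0.06 with all arrays and 0.05 without control replicate 1.

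**Figure D4:**
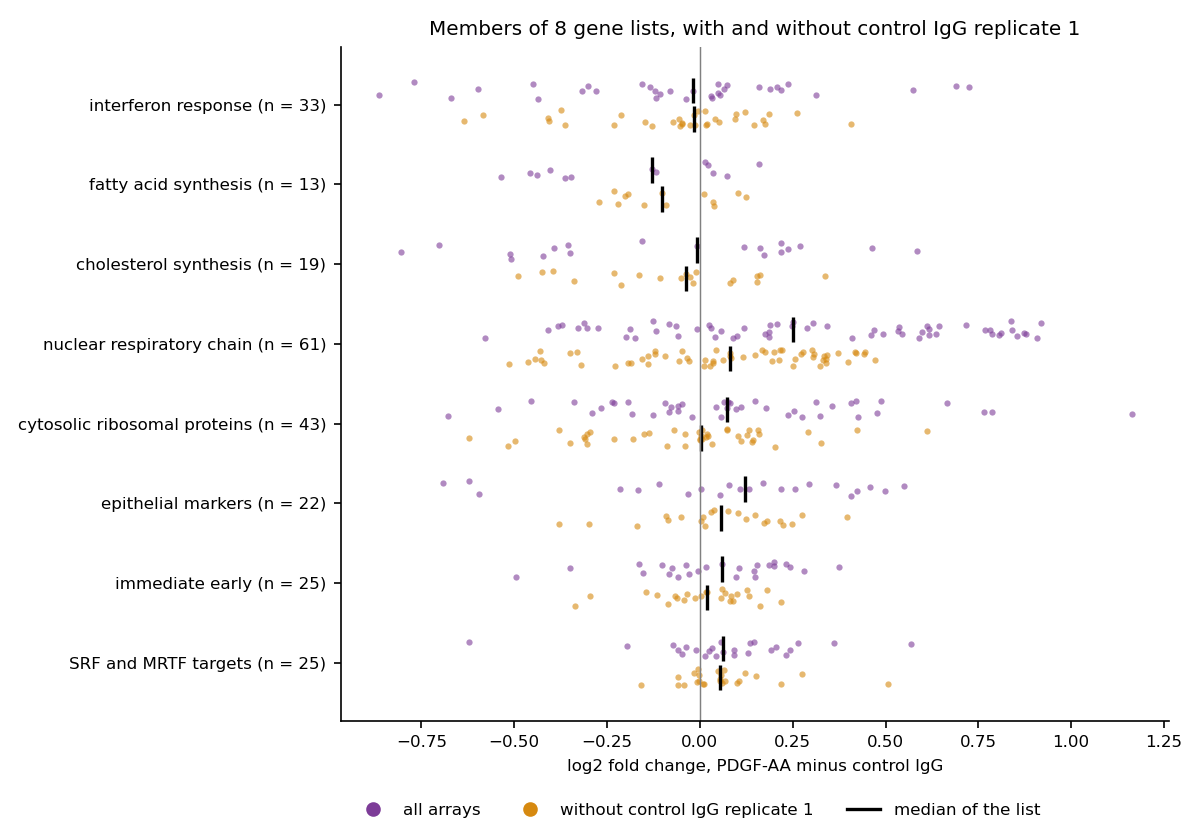
Log2 differences between PDGF-AA and control IgG for the measured members of 8 gene lists, with all arrays and without control IgG replicate 1, 1 point per gene and a bar at the median. Leaving out the replicate draws the respiratory chain median from 0.25 to 0.08, while the interferon median stays at -0.02 with its lower members to the left.

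The lists of genes below the PDGF receptor shared no common direction. Their counts at an unadjusted p below 0.05 in both fits, 0 to 3 members a list in either direction, stand against 5.94% of all genes higher and 3.95% lower. Of 25 immediate early genes 0 were higher and 2 lower at an unadjusted p below 0.05 in both fits, with medians of 0.06 and 0.02. EGR1, a zinc finger factor induced by growth factors, read 9.47, 9.43 and 9.43 on the control arrays and 8.80, 9.28 and 9.20 on the PDGF-AA arrays. The controls were within 0.1 of each other and all PDGF-AA arrays were lower, by a mean of -0.35 ± 0.10, or -0.34 ± 0.11 without control replicate 1. With 3G3 it read 9.42, 9.26 and 9.57. CCN1, a secreted matricellular protein, read 11.22, 10.64 and 10.60 against 10.22, 10.55 and 10.20, a difference of -0.50, or -0.30 without control replicate 1. MYC differed by 0.15 and 0.13, and its sign turned under scaling to a common median and without normalization.
Of 21 ERK output and feedback genes 1 was higher and 2 lower. DUSP5, a phosphatase that is induced by ERK and switches it off, read 11.64, 11.21 and 11.23 against 10.91, 11.07 and 10.97, a difference of -0.38 ± 0.09, or -0.24 ± 0.07 without control replicate 1. SPRY1, an inhibitor of receptor tyrosine kinase signalling, went from -0.45 to -0.20, and SPRED2, an inhibitor of RAS to ERK signalling, was at 0.26 and 0.20 but at -0.08 without normalization. Among 25 adaptors and kinases, HRAS was higher, at 0.47 and 0.30. The ubiquitin ligase CBL, which sends receptors to degradation, was lower at -0.53 and -0.29, and the adaptor CRKL at -0.20 and -0.17. A dimmer CBL probe had overlapping groups and differed by -0.183 and -0.12. Of 17 PI3K, AKT and mTOR components only the kinase MTOR was lower, at -0.28 and -0.16, and 0 were higher. Of 21 FOXO target genes, which AKT holds down, 3 were lower and 0 higher, with medians of -0.06 in both fits. They were RBL2, a pocket protein of the cell cycle, at -0.46 and -0.33, the insulin receptor substrate IRS2 at -0.40 and -0.29, and TSC22D3 at -0.18 and -0.18. In the FOXO list 7 of 21 members had all PDGF-AA arrays below all control arrays and 2 had them above, where 9.76% and 11.6% of all genes did. Of 21 phospholipase C and phosphoinositide genes PLCB4 alone was lower and 0 were higher. Of 19 receptor tyrosine kinases 2 were lower and 0 higher, AXL at -0.23 and -0.22 and EGFR at -0.31 and -0.22. The 3 dimmer EGFR probes differed by -0.03, -0.085 and 0.048. The medians of the adaptor, ERK, PI3K, phospholipase and receptor kinase lists ran from -0.018 to 0.07 with all arrays.

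Proliferation, stress and hormone lists held few genes that differed. Their counts stand against 5.94% of all genes higher and 3.95% lower at an unadjusted p below 0.05 in both fits. Apart from the 34 genes of S phase and mitosis, these lists had 11 to 24 measured members each. Of 34 genes of S phase and mitosis 1 was higher and 0 lower in both fits, the mitotic ubiquitin-conjugating enzyme UBE2C, at 0.61 and 0.28, and the median was -0.07 with all arrays and -0.04 without control replicate 1. At most 2 members in either direction did so in the lists of hypoxia, heat shock, endoplasmic reticulum stress, amino acid response, glutathione defence, NF-kB, antigen presentation, angiogenic and TGF-beta genes and in the fibroblast, leukocyte and endothelial marker lists. ID1, an inhibitor of differentiation that answers BMP and TGF-beta signals, was one of them, at 0.59 and 0.30. In the lists of p53 targets, Wnt targets and endometrial hormone response genes 0 members did.

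The same contrast was made in RL95-2, and the difference between the lines was tested for every probe. It passed for 1 probe of 32070 (0.00312%), higher in Hec-1A, with all arrays and without control replicate 1, and that probe was TAGLN. In RL95-2 the gene read 7.76, 7.90 and 7.83 on control arrays, 7.18, 7.19 and 7.15 with PDGF-AA and 7.94, 7.67 and 7.96 with 3G3 added. PDGF-AA arrays were thus below all controls in RL95-2 and above all controls in Hec-1A. The difference between the effects was 1.23 ± 0.12 (SE; limma adjusted p = 0.000799), and 1.17 ± 0.12 without control replicate 1 (adjusted p = 0.00107). It did not pass without normalization between arrays, at 0.96 (adjusted p = 0.168). For the other leading genes the difference between lines did not pass. In RL95-2, PLCB4 differed by 0.08 and IFIT1 by -0.05, against -0.50 and -0.77 in Hec-1A, and the limma adjusted p of the difference between the lines was 0.126 and 0.139. At an unadjusted p below 0.05 the Hec-1A effect minus the RL95-2 effect was positive for 3449 probes (10.8%) and negative for 2936 (9.15%). This sign does not tell in which line the effect was larger, and PLCB4 and IFIT1 are on the negative side.

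**Figure D5:**
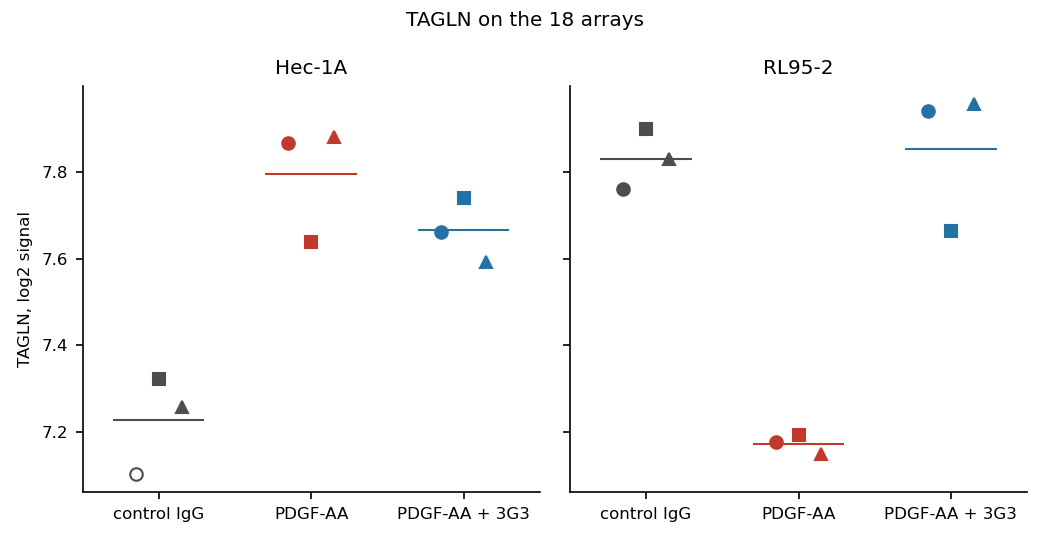
Log2 signal of TAGLN on the 18 arrays, by line and treatment, with 1 point per array and a line at the mean of 3 arrays. In Hec-1A the PDGF-AA arrays lie at 7.64 to 7.88, above all controls, and in RL95-2 at 7.15 to 7.19, below all controls.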

How the data were processed

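Biotin-labelled cRNA from total RNA was hybridised to Illumina bead arrays, and signals were exported with BeadStudio, per the submitters' processing notes, which give no version. The authors deposited signal intensity without normalization and log2 values. The deposited log2 values differed by at most 0.0438 from a quantile normalization of those intensities. Both tables hold 47231 probes on 18 arrays.

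The log2 values were tested for the 32070 probes (67.9%) that exceeded the median of their array on 3 or more arrays. Of these, 21537 carried 1 gene symbol in the platform annotation. Group means of all 6 groups were fitted with limma 3.58.1 in R 4.3.3, two-sided, with Benjamini-Hochberg adjustment over all tested probes and a threshold of 0.05. Residual and prior degrees of freedom were 12 and 3.61, or 11 and 5.39 without control IgG replicate 1. The steps were tested on simulated data. Each gene was taken at its brightest probe over the 18 arrays. No background was subtracted, so differences of dim probes are understated. Gene spans came from RefSeq on GRCh38.p14.

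The comparison, the 33 gene lists and the rule for named genes were chosen with earlier results of these data known. Named genes were, in each direction, the 12 with the smallest larger p of both fits and no overlap of groups, the 5 with the smallest p in each fit, the 5 with the largest folds among those with groups apart and an unadjusted p below 0.05 in both fits, up to 4 members of each list, the PDGF family, the 5 leading genes for the difference between lines and the 8 furthest out on control IgG replicate 1. Some were left out for length. ACAT2, DDX60, FADS1, IDI1, IFIH1, IFIT3, IFITM2, KRT18, OVOL2 and RIGI were added after their values were seen. Alternatives were other normalizations, background corrections, filters, variance models, probe rules and sets of arrays, and a replicate block.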

Additional observations from a re-analysis of the deposited data

Results flagged for a closer look

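TAGLN, the gene of the actin-binding protein transgelin, had a PDGF-AA effect that differed between the lines by a test of that difference, at 1.227 on the log2 scale in Hec-1A minus RL95-2 (SE 0.12, limma adjusted p = 0.000799). The effect was 0.57 in Hec-1A, where PDGF-AA arrays were higher than every control in 3 of 3 arrays, and -0.66 in RL95-2, where 3 of 3 were lower. Over 30 alternatives the difference ran from 0.958 to 1.503, with adjusted p from 3e-05 to 0.433. It rests on 1 of 3 TAGLN probes, the brightest. It was the only difference between the lines that passed among 32070 probes.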

How the results depend on the processing

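For PDGF-AA against control IgG in Hec-1A, 0 probes passed with all arrays, 2 at an adjusted p below 0.1 and 4701 with array quality weights. Leaving out 1 array at a time gave 0 to 3684, with 13 without PDGF-AA replicate 2. Without control IgG replicate 1 the count was 0, but 36 with array quality weights, and it was 1 without control replicate 2 as well and 410 without PDGF-AA replicate 2 as well. The other alternatives run for these counts gave 0. The difference between the lines passed for 1 probe, for 2646 with array quality weights, for 0 without normalization and for 0 with the replicate block. Leaving out 1 array at a time gave 1 to 2308, the highest when replicate 2 of the Hec-1A controls was left out, and 7 when replicate 2 of the Hec-1A PDGF-AA arrays was. Without control IgG replicate 1 it passed for 7 probes with weights, 0 without normalization and 0 with the block. The TAGLN difference between the lines was 0.96 without normalization (limma adjusted p = 0.168) and 1.227 with the replicate block (adjusted p = 0.0646). Without control IgG replicate 1 it was 0.958 and 1.148 under these settings (adjusted p = 0.433 and 0.131). Same-numbered control and PDGF-AA arrays deviated with correlations of -0.42, -0.5 and 0.08, so the numbers did not pair the arrays. The block kept the Hec-1A counts at 0, with 5648 probes at an unadjusted p below 0.05 against 6736, and 1756 against 2977 without control IgG replicate 1.

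No normalization moved the median over all probes from 0.003 to -0.119. List medians were then -0.311 for cholesterol synthesis, -0.501 for fatty acid synthesis, -0.165 for interferon response genes and -0.193 for epithelial markers, and 27 of the other 27 lists ran from -0.327 to -0.045. The cholesterol median was 0.088 with the median over all probes of a gene. Counts of members in both fits were recomputed under alternatives added after the data were seen, and the shares of all genes were not counted under them. The 5 lower fatty acid genes became 3 with normexp and 3 without normalization, the 22 higher respiratory chain genes 0 without normalization and 3 with a common median, and the 5 higher ribosomal proteins 1 and 2. Without normalization the sign turned for ARHGAP1 (-0.047), MYC (-0.149), PDGFB (-0.163), PDGFRA (-0.052), PDGFRL (-0.029) and SPRED2 (-0.083). With a common median it turned for MYC (-0.062) and PDGFB (-0.075), and with array quality weights for PDGFB (-0.094) and PDGFD (0.044). Leaving out 1 array gave -0.01 to 0.168 for PDGFB and -0.069 to 0.014 for PDGFD. The other 95 of 102 genes kept their sign. The cause of these shifts was not tested. The number of arrays limits precision, and dim probes compress differences.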
